A study of Mus musculus with 2 samples.

Results

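Mir143, Mir145a, Mir203 and Mir470 are 4 of the 1174 mouse miRNA hairpins searched, of which 814 had reads. They were grouped because their miRNAs are known for promoting exit from pluripotency or differentiation, and their members were the sequence tags that match one of the 4 GENCODE vM21 hairpins without a mismatch. The cells were J1 mouse ES cells, an embryonic stem cell line grown on gelatin, per the labels in medium with serum replacement and LIF. One group received 1 mM AICAR for 24 h, the other the same volume of DMSO, the solvent, and each group was 1 small RNA library. AICAR is a precursor of an AMP analogue that activates AMP-activated protein kinase, the energy sensor of the cell. The comparison asks how these miRNAs differed between AICAR-treated and DMSO-treated cells. With 1 library per condition there was no replicate check, so no p-value is given, and all 95% intervals cover the error of counting reads only.

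A miRNA gene is transcribed as part of a longer RNA that folds into a hairpin, from which Drosha and Dicer cut a short duplex. Either strand, called the 5p or the 3p arm, can be loaded into an Argonaute protein, and bases 2 to 8 of the loaded strand, the seed, pair with target mRNAs. miR-145 is known to repress Oct4, Sox2 and Klf4 in differentiating embryonic stem cells and is abundant in smooth muscle together with miR-143, its partner on the same primary transcript. miR-203 promotes differentiation of skin keratinocytes, and miR-470 has been described to target the coding sequences of Nanog and Oct4 during retinoic acid treatment.

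Mir203 and Mir470 are shown as sequence because both miR-203 tags that carried most reads start at different bases, while miR-470 reads shared 1 start. RefSeq (GRCm38.p6) places the miR-203 hairpin at chr12:112130880-112130955 on the plus strand and the miR-470 hairpin at chrX:66813951-66814025 on the minus strand. No other annotated gene overlaps either hairpin on its own strand. In the hairpins the capitals mark the mature arms, and in the other lines they mark the seed, bases 2 to 8.
miR-203 hairpin: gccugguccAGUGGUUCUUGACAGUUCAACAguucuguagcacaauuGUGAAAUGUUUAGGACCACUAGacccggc
miR-203-3p, RefSeq: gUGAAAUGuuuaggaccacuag
miR-203-3p tag of 22 nt, with 11 reads in DMSO and 36 in AICAR: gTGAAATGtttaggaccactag
miR-203-3p tag of 21 nt, with 15 reads in DMSO and 32 in AICAR: tGAAATGTttaggaccactag
miR-470 hairpin: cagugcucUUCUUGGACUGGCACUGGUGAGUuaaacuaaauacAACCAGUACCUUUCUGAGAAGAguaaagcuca
miR-470-5p, RefSeq: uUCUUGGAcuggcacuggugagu
miR-470-5p tag of 23 nt, with 81 reads in DMSO and 191 in AICAR: tTCTTGGActggcactggtgagt
The 21-nt miR-203-3p tag lacks the first base of the RefSeq sequence, so its seed window is moved by 1 base. The most abundant miR-470-5p tag was the RefSeq sequence itself.

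The DMSO library held 18870345 clean reads and the AICAR library 21091226, so 1 read equals 0.0530 and 0.0474 reads per 1000000 clean reads (RPM). Reads matching a miRNA hairpin made up 11.6% and 15.7% of them, and reads shorter than 21 nt made up 9.49% of the hairpin reads in DMSO against 3.81% in AICAR. Of the miRNA arms, 508 reached 1 RPM in at least 1 library and were compared. Their median log2 fold, AICAR over DMSO, was 0.13 per clean read, -0.31 per hairpin read and 0.04 after TMM scaling, and changes are given per clean read and also relative to the median arm.

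Of the 8 arms of the 4 hairpins, 6 had reads and 5 reached 1 RPM. miR-145-5p, miR-203-3p and miR-470-5p were higher by at least 2-fold in the AICAR library, miR-143-5p was lower by more than 2-fold, and miR-143-3p, by far the most abundant, lay close to 1. Among all 508 arms, 12.01% had a fold of at least 2 and 10.04% a fold of at most 0.5. The 50 tags on the 4 hairpins, which include all tags behind these values, matched no other hairpin and no other GENCODE transcript on either strand.

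**Figure D1:**
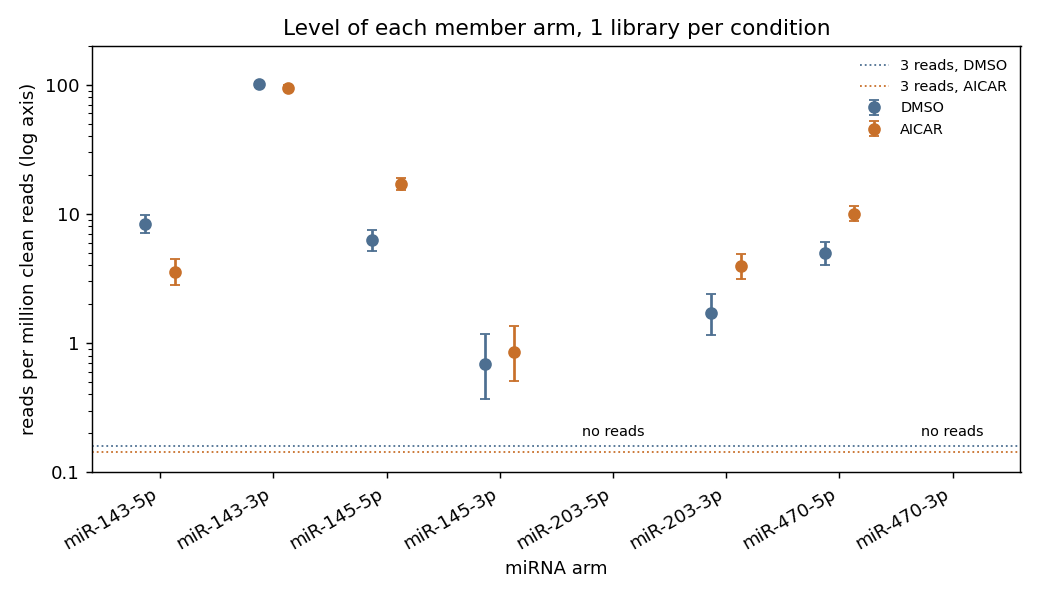
Level of each arm in the DMSO and AICAR libraries, in reads per 1000000 clean reads on a log axis, with exact Poisson 95% intervals and dotted lines at 3 reads. miR-143-3p stands near 100 RPM in both libraries (100.7 and 94.9), miR-145-5p, miR-203-3p and miR-470-5p are higher in AICAR, miR-143-5p is lower, and 2 arms had no reads.

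miR-145-5p, the arm known to repress Oct4, Sox2 and Klf4, had 118 reads in DMSO and 360 in AICAR. Its level was 6.25 RPM and 17.1 RPM, 2.73-fold higher (95% interval 2.21 to 3.39), and 2.49-fold relative to the median arm. Of all arms compared, 95.5% had the same fold or a lower one, and the rank of miR-145-5p by reads went from 294 to 205. The opposite arm, miR-145-3p, stayed below 1 RPM in both libraries with 13 and 18 reads. Its fold of 1.24 had an interval from 0.574 to 2.75, so neither a change nor a difference from the 5p arm was detectable from these reads. Mir145b, a separate annotated hairpin of the same family, had 0 reads in either library.

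miR-143-3p, the guide strand of its hairpin, had 1901 reads in DMSO and 2001 in AICAR. The levels of 100.7 and 94.9 RPM ranked it 100 and 99 among all arms. Its fold was 0.942 (0.884 to 1.00) per clean read and 0.858 relative to the median arm. The direction depended on what was counted, since the fold was 1.01 (0.955 to 1.08) when tags with 1 added 3′ base were included. The other arm, miR-143-5p, had 159 and 75 reads, or 8.43 and 3.56 RPM. Its fold was 0.422 (0.316 to 0.559), and 6.10% of the arms compared had the same fold or a lower one.

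miR-203-3p, the keratinocyte differentiation miRNA, had 32 reads in DMSO and 83 in AICAR. Its DMSO reads were the fewest among the 5 arms of the 4 hairpins that reached 1 RPM. The level was 1.70 RPM against 3.94 RPM, a fold of 2.32 (1.53 to 3.61) and 2.11 relative to the median arm. No read of miR-203-5p was found in either library, where 3 reads would be 0.159 RPM in DMSO and 0.142 RPM in AICAR. The strand opposite Mir203 gave 1 tag with 1 read in each library.

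miR-470-5p had 94 reads in DMSO and 212 in AICAR. Its 4.98 and 10.1 RPM gave a fold of 2.02 (1.58 to 2.60), or 1.84 relative to the median arm. It was therefore at the 2-fold limit, and TMM scaling (1.89), median-ratio scaling (1.84) and 1 allowed mismatch (1.95) put it just under that limit. No miR-470-3p read was found.

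**Figure D2:**
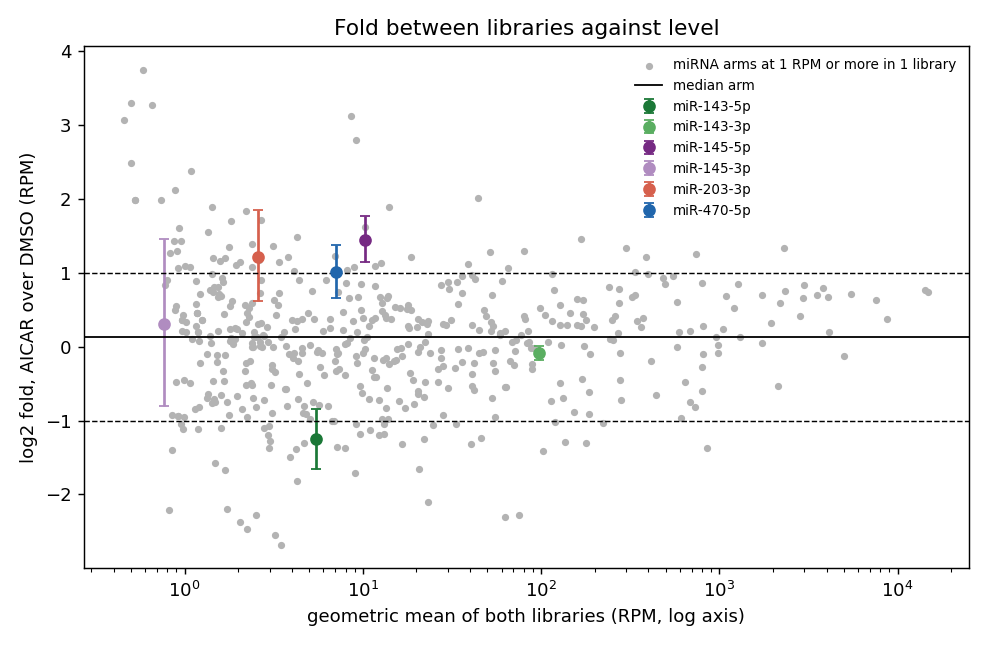
Fold between the libraries (log2 of AICAR over DMSO, per clean read) against the geometric mean level in RPM (log axis) for the 508 arms compared (grey) and the arms of the 4 hairpins with reads (coloured, with exact 95% counting intervals). The solid line is the median arm and the dashed lines mark 2-fold; miR-145-5p and miR-203-3p lie above the upper line, miR-470-5p on it, miR-143-5p below the lower line and miR-143-3p near 0.

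The order of these folds among themselves was not settled by the reads. miR-145-5p stood at 126 reads per 100 miR-470-5p reads in DMSO and 170 in AICAR, a ratio of 1.35 with an interval of 0.969 to 1.88. Against miR-203-3p the ratio was 1.18 (0.718 to 1.89), and miR-470-5p against miR-203-3p gave 0.870 (0.522 to 1.43). All 3 differed from miR-143-3p beyond counting error, by a ratio of 2.90 (2.32 to 3.63) for miR-145-5p, 2.46 (1.61 to 3.85) for miR-203-3p and 2.14 (1.66 to 2.78) for miR-470-5p. These ratios within a library do not depend on the denominator. With reads matching hairpins as the denominator, miR-145-5p was at 2.01, and miR-203-3p (1.71) and miR-470-5p (1.48) were under 2-fold. The share of all arms at 2-fold or more was then 4.72%.

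**Figure D3:**
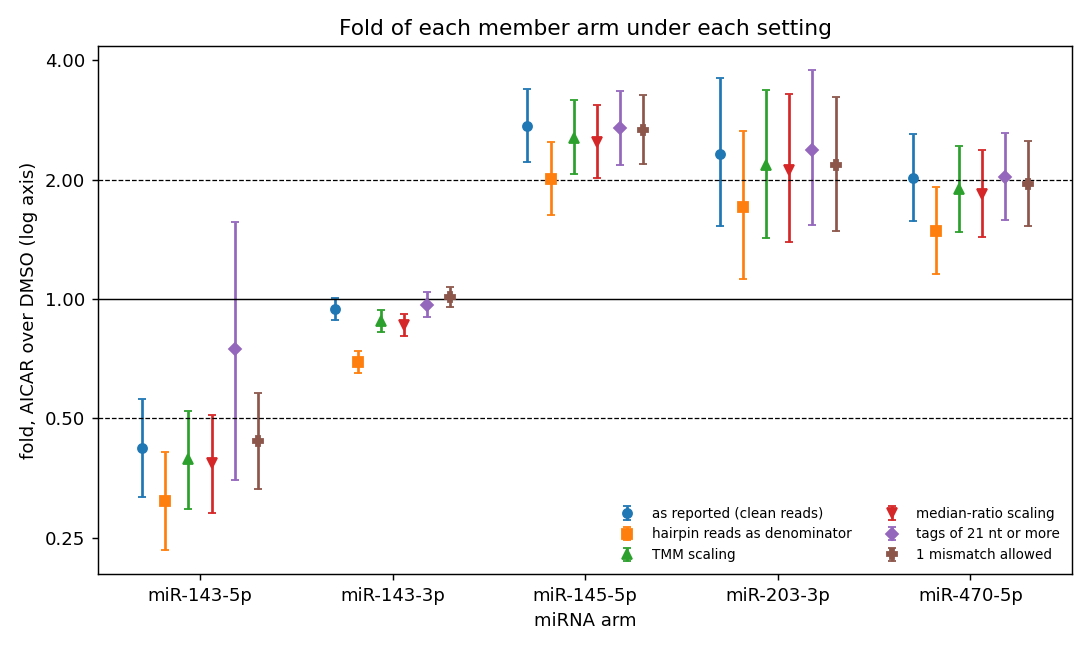
Fold (AICAR over DMSO, log axis) of the 5 arms that reached 1 RPM under the scaling and tag choices named in the legend, with exact 95% counting intervals and dashed lines at 2-fold either way. The 3 arms higher in AICAR stay above 1 under every setting drawn, miR-143-3p lies on both sides of 1, and the miR-143-5p fold moves from 0.422 to 0.746 with tags of 21 nt or more.

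Mir143 and Mir145a share a primary transcript, so the pair allows hairpins that come from 1 RNA to be set side by side. In the GENCODE annotation (GRCm38), Mir145a lies on chromosome 18 at 61647825 to 61647894 and Mir143 at 61649196 to 61649258, both on the minus strand and 1301 bases apart. The long non-coding RNA gene Carmn, annotated on the same strand, lies 366 bases from Mir143, and no annotated gene overlaps either hairpin on its strand. Per 100 miR-143-3p reads there were 6.21 miR-145-5p reads in DMSO and 18 in AICAR. Against miR-143-5p the partner arm went from 74.2 to 480 reads per 100, a ratio of 6.45 (4.52 to 9.27). Counted over every tag of each hairpin, Mir143 had 2061 and 2077 reads and Mir145a had 136 and 380. The partners therefore differed in their change between these libraries, with Mir145a higher by 2.50-fold (2.05 to 3.06) and Mir143 at 0.902 (0.848 to 0.959).

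Use of the arms also differed between the partners. The 5p arm took 7.72% of the Mir143 reads in DMSO (Wilson 95% interval 6.64 to 8.95) and 3.61% in AICAR (2.89 to 4.50), an odds ratio of 0.448 (0.333 to 0.598). In Mir145a the 5p arm was the main strand, with 90.1% (83.8 to 94.1) in DMSO and 95.2% (92.6 to 97.0) in AICAR. Its odds ratio of 2.20 had an interval from 0.960 to 4.91. A further 5 reads in DMSO and 2 in AICAR lay directly before the 3p arm of Mir145a, in the loop. Only with these loop reads counted as 3p reads did the interval leave out 1 (odds ratio 2.74, 1.32 to 5.66). Shifts of this size were common among the 172 hairpins with at least 20 reads on each arm in each library. The odds of the 5p arm changed at least 2-fold in either direction in 25.6% of them, Mir143 included (Mir145a had too few 3p reads to be counted). Hairpin copies that share tags, such as those of Mir669a and Mir467a, each count in this share, so the 172 are not separate measurements. Mir203 gave 3p reads alone (0 of 32 and 0 of 83 on the 5p arm) and Mir470 5p reads alone.

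The difference in miR-143-5p lay mostly in its short tags, which also held most of its reads. All of its reads started at the same base, and its main tag was 19 nt long, with 111 reads in DMSO and 55 in AICAR. Tags of 18 to 20 nt had 141 and 60 reads, a fold of 0.381 (0.277 to 0.519), and made up 88.7% and 80.0% of the arm (odds ratio 0.512, 0.227 to 1.17). This interval includes 1, so a change particular to the short tags was not settled. Tags of 21 nt or more had 18 and 15 reads, with a fold of 0.746 (0.350 to 1.57). Within these, the 21-nt tag had 11 and 2 reads and tags of 22 and 23 nt had 7 and 13. With tags of at least 21 nt alone, the 5p share of Mir143 was 1.27% (0.807 to 2.00) in DMSO and 0.984% (0.597 to 1.62) in AICAR, and the odds ratio of 0.770 had an interval from 0.360 to 1.62. Short reads were a smaller share of the AICAR library as a whole: the median share below 21 nt over all arms was 4.80% in DMSO and 2.48% in AICAR. Of the 46 arms compared whose DMSO reads were mostly shorter than 21 nt, 32.6% had a fold of at most 0.5, against 7.79% of the other 462. Their median fold was 0.681, against 1.15. The class was set by DMSO reads alone and includes miR-143-5p, so low folds in it can follow from the choice itself. The part of read length in the miR-143-5p difference was not tested.

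The main tags of miR-145-5p, miR-470-5p and miR-143-3p took similar shares of their arms in both libraries. The 23-nt tag took 71.2% of miR-145-5p in DMSO and 73.6% in AICAR, with 84 and 265 reads. Its 24-nt tag (13 and 45 reads) and 22-nt tag (16 and 36 reads) were also higher in AICAR, by 3.10-fold (1.64 to 6.26) and 2.01-fold (1.09 to 3.89). Of miR-470-5p, the 23-nt tag took 86.2% and 90.1%. The 24-nt miR-470-5p tag was seen in DMSO alone, with 4 reads. miR-143-3p was 71.4% and 71.2% a 21-nt tag, with 1357 and 1424 reads, and its 20-nt tag had 479 and 464. A rarer 22-nt tag whose last base matches the next base of the hairpin had 28 reads in DMSO and 79 in AICAR. Its fold was 2.52 (1.62 to 4.04) where the arm as a whole was at 0.942. In the arms with few reads the shares were less alike. Tags of 21 nt took 53.1% of miR-203-3p in DMSO and 41.0% in AICAR, and tags of 22 nt 37.5% and 45.8%. Of miR-145-3p, 4 of 13 reads in DMSO and 1 of 18 in AICAR were shorter than 21 nt.

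**Figure D4:**
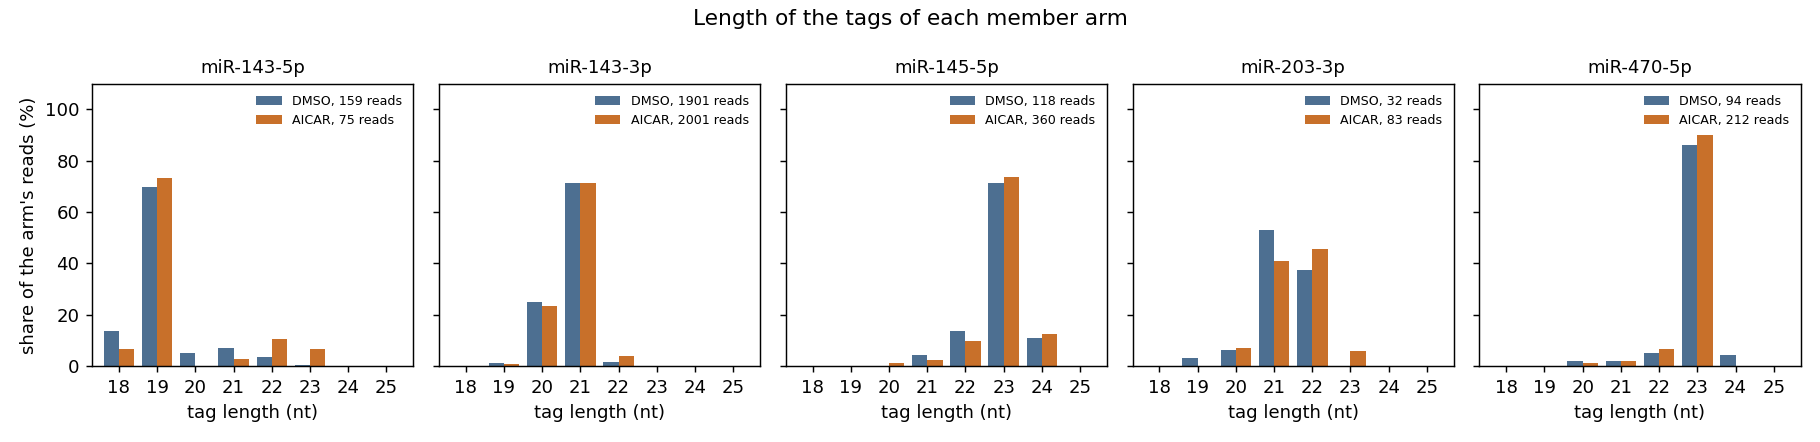
Share of the reads of each arm (%) by tag length in nt, for DMSO and AICAR, with the arm's read number in each legend. Most miR-143-5p reads are 18 to 20 nt long, most miR-143-3p reads 20 or 21 nt, and most miR-145-5p and miR-470-5p reads 23 nt, while miR-203-3p is divided between 21 and 22 nt.

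Starts were nearly fixed for miR-143-5p, miR-143-3p, miR-145-5p and miR-470-5p and split for miR-203-3p and miR-145-3p. Of the miR-143-3p reads, 99.5% and 99.6% started at 1 base, and the same held for 118 of 118 and 359 of 360 miR-145-5p reads. In miR-203-3p, 14 of 32 reads in DMSO and 42 of 83 in AICAR began at the RefSeq start (43.8% and 50.6%). Those 1 base later were 16 and 37 (50.0% and 44.6%), and those 1 base earlier were 2 and 4. The fold was 2.68 (1.44 to 5.32) for the RefSeq start and 2.07 (1.12 to 3.98) for the start 1 base later, with intervals that overlap. The 22-nt tag and the 21-nt tag printed above tied in their summed reads, with folds of 2.93 (1.46 to 6.38) and 1.91 (1.00 to 3.79). Of miR-145-3p, 5 of 13 reads in DMSO and 7 of 18 in AICAR started 2 bases before the others. No other mature miRNA of the 1738 in the RefSeq table had the seed of either miR-203-3p form.

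Reads that carry 1 last base not found in the hairpin, as terminal nucleotidyltransferases add to mature miRNAs, were counted apart. An added base equal to the next base of the hairpin cannot be told apart from a longer matching tag, and was not counted here. On miR-143-3p an added U was found in 134 of 2088 reads in DMSO (6.42%, 5.44 to 7.55) and 308 of 2365 in AICAR (13.02%, 11.7 to 14.4). The odds ratio was 2.18 (1.76 to 2.72), and most of these reads were 1 tag, the 21-nt main tag plus a U, with 121 and 299 reads. An added A was found in 51 and 55 reads, an odds ratio of 0.951 (0.635 to 1.43), mostly in a tag of 21 nt (48 and 45 reads). A base added to the 21-nt main tag that equals the next hairpin base would count in the 22-nt matching tag (28 and 79 reads). The counts of added bases are therefore not complete. A higher share with U was the rule among well-covered arms: of 124 arms with at least 1000 reads in each library, 96 had a higher share in AICAR, and the median share was 1.45% in DMSO and 1.90% in AICAR. A share at least 2-fold higher, as on miR-143-3p, was found in 10.5% of them. For the other arms the counts were low, and added bases equal to the next hairpin base were left out, so a difference was not settled. On miR-145-5p an added U was found in 8 of 131 reads in DMSO and 15 of 400 in AICAR (odds ratio 0.600, 0.232 to 1.67), and any added base in 13 and 40 (odds ratio 1.01, 0.507 to 2.13). On miR-203-3p an added U made up 15.4% and 13.5% of the reads, and miR-470-5p had 0 and 1 read with an added base.

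**Figure D5:**
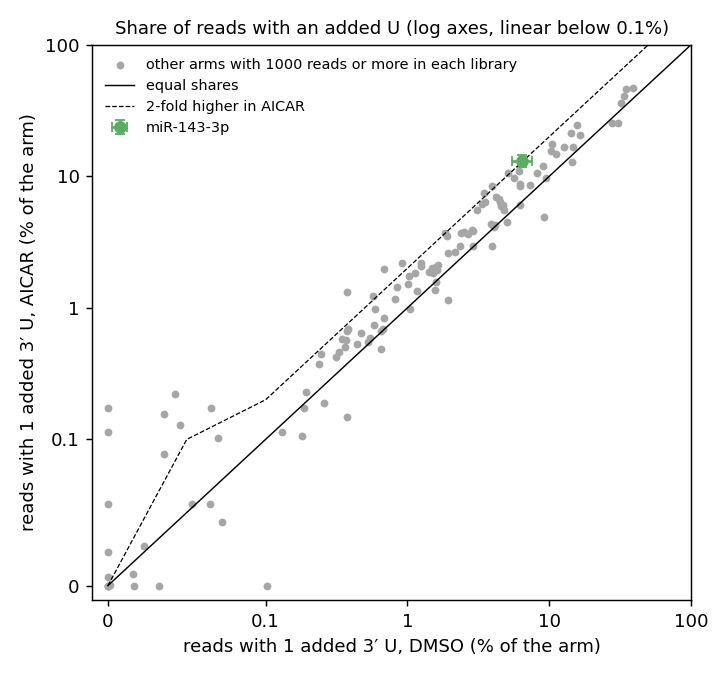
Share of an arm's reads that carry 1 added 3′ U (%), AICAR against DMSO, for the 124 arms with at least 1000 reads in each library, on log axes that are linear below 0.1%. miR-143-3p (green, with Wilson 95% intervals) lies at 6.42% and 13.02%, on the dashed line of a 2-fold higher share, and most of the arms lie above the solid line of equal shares.

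The surroundings of the hairpins differed. Mir203 has no other miRNA hairpin within 10 kb on its strand. Mir470 stands in a chain of 19 hairpins on the X chromosome whose gaps are at most 10 kb, between 66776757 and 66839125 (GRCm38), and all 19 had reads. The others of the chain held 525 reads in DMSO and 1093 in AICAR, a fold of 1.86 (1.68 to 2.07) beside the 2.02 of miR-470-5p. Of their 26 arms, 10 reached 1 RPM, all 10 were higher in AICAR per clean read, and 7 were higher by at least 2-fold. miR-743b-3p, miR-883b-5p, miR-741-3p and miR-871-3p reached 1 RPM in AICAR alone, so for these a higher AICAR level followed from the filter. All of them but miR-741-3p are among the 7 arms at 2-fold or more, so the filter also favoured that count. Arms under the limit went both ways, such as miR-743b-5p (11 and 7 reads) and miR-471-5p (6 and 18). Over all 508 arms, 289 were higher per clean read and 12.01% were at 2-fold or more. miR-881-3p had 33 and 83 reads (2.25-fold, 1.49 to 3.48), miR-880-3p had 21 and 60 (2.56-fold, 1.53 to 4.42) and miR-883b-5p had 8 and 39 (4.36-fold, 2.01 to 10.8). Lower folds were found for miR-465c-5p, with 186 and 332 reads (1.60-fold, 1.33 to 1.92), and miR-741-3p, with 17 and 22 (1.16-fold, 0.587 to 2.32). The miR-465 hairpins share tags, so their reads cannot be divided among the copies. The intervals of miR-741-3p and of the shared 5p arm of the Mir465b hairpins (34 and 45 reads, 1.18-fold, 0.742 to 1.91) include 1.

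Of the 6 arms with reads, 1 shared its seed with another mature miRNA in the RefSeq table. miR-143-5p has the same bases 2 to 8 as miR-1930-3p, which had 6 reads in DMSO and 2 in AICAR, so nearly all reads with that seed came from Mir143. The seeds of miR-143-3p, miR-145-5p, miR-203-3p and miR-470-5p and of miR-145-3p were carried by no other entry.

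Among other miRNAs described to repress pluripotency factors or to promote exit from pluripotency, arms past 2-fold were about as frequent as among all arms. The list held 9 hairpins (Mir134, Mir296, Mir34a, Mir21a, Mir200c, Mir183, Mir27a, Mir24-1 and Mir24-2) with 12 arms at 1 RPM or more. Of these, 1 was higher by at least 2-fold, miR-24-2-5p with 14 and 33 reads, and 2 were lower by at least 2-fold, beside 12.01% and 10.04% of all arms. miR-24-2-5p reached 1 RPM in AICAR alone, so its higher AICAR level followed from the filter. miR-134-5p, which represses Nanog and Sox2, had 3148 reads in DMSO and 1327 in AICAR (0.377-fold, 0.353 to 0.402), and miR-296-3p had 2627 and 595 (0.203-fold, 0.185 to 0.222). Of the miR-296-3p reads, 95.8% in DMSO and 77.1% in AICAR were shorter than 21 nt, so this arm belongs to the class set by DMSO reads above. Below 2-fold were miR-34a-5p, a p53 target, with 422 and 862 reads (1.83-fold, 1.62 to 2.06), and miR-183-5p with 3433 and 6696 (1.75-fold, 1.67 to 1.82). In the other direction, the arm shared by miR-27a-3p and miR-27b-3p had 4803 and 2855 reads (0.532-fold, 0.508 to 0.557). Of its reads, 91.5% in DMSO and 77.7% in AICAR were shorter than 21 nt. The median fold of the list was 1.17, against 1.10 over all 508 arms.

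Markers of cells in which these miRNAs are abundant were looked at beside them. The libraries carried the miRNAs of mouse ES cells, with 33363 RPM in DMSO and 57834 RPM in AICAR over the 11 miR-290 and miR-302 hairpins listed. Nearly all of that sum was from the miR-290 cluster. Of the 18 arms of this list at 1 RPM or more, 4 were at 2-fold or more, beside 12.01% of all 508 arms. At 0.5 or less were 3, all of miR-302, beside 10.04% of all arms. Among them was miR-302a-5p with 147 and 28 reads (0.170-fold, 0.109 to 0.257). miR-302a-3p (26 and 11 reads) and miR-302b-3p (27 and 14 reads) reached 1 RPM in DMSO alone. For these a lower AICAR level followed from the filter. Mesenchymal cells express Mir143 and Mir145a, and their marker arm miR-199a/b-3p had 1734 reads in DMSO and 1917 in AICAR, 0.989-fold (0.926 to 1.06), with no read from Mir214. For stratified epithelium, which expresses Mir203, miR-205-5p had 135 and 176 reads (1.17-fold, 0.927 to 1.47). The blood list summed to 17.1 and 16.1 RPM, mostly miR-142-5p, with miR-142-3p lower (15 and 6 reads) and miR-451a-5p higher (7 and 21). The muscle list summed to 161 and 205 RPM, mostly miR-1a-3p (2966 and 4270 reads, 1.29-fold). miR-206-3p, also in the muscle list, was lower, with 59 and 34 reads (0.516-fold, 0.328 to 0.799). Liver miR-122-5p had 55 and 536 reads (8.72-fold, 6.60 to 11.7). The part of other cells or of carried-over RNA in the member levels was not tested, and a change in the number of such cells and in RNA per cell cannot be told apart in bulk RNA.

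By distance over log2(RPM + 1) in the 2 libraries, the arms nearest to each main arm were as follows. Nearest to miR-143-3p were miR-199a/b-3p (distance 0.145), miR-487b-3p (0.205) and miR-17-3p (0.216), with folds of 0.850 to 0.989. miR-145-5p was closest to miR-345-5p (0.108; 111 and 381 reads), then miR-210-5p (0.312) and the shared miR-465-3p arm (0.370). For miR-203-3p these were miR-881-3p (0.0281), miR-500-3p (0.119) and miR-669o-5p (0.149). miR-470-5p lay next to the shared miR-669a/p-5p arm (0.132), miR-125b-5p (0.171) and miR-193b-3p (0.244). With 2 libraries this likeness means only that level and fold were alike.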

How the data were processed

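Total RNA of J1 mouse ES cells was size-selected for small RNA and sequenced, and the authors removed low-quality and contaminant reads. Each deposited table lists distinct tag sequences with a length column and the count of clean reads, not normalised and not collapsed by molecular identifiers. The control library bears a title ending in U and the treatment label DMSO, and the label was used. The submitters' processing notes name mm9, but no coordinates from it were used; aligner versions are not given in the sources used here.

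Tags were matched without mismatch to the sequences of 1174 GENCODE vM21 miRNA hairpins. Each arm was set by its most abundant tag, libraries summed (for miR-203-3p a 21-nt and a 22-nt tag tied, and the alphabetically last, of 21 nt, was taken), and tags starting within 2 nt and ending within 4 nt of it were summed. Counts were divided by clean reads (RPM). Ratios have exact binomial and shares Wilson 95% intervals (Python 3.11.15, scipy 1.17.1), and odds ratios exact conditional ones. A count of 0 allows up to 3 reads. Alternatives were other denominators (including TMM from edgeR 4.0.16, and median ratios), tag rules, lengths, filters and a fold limit of 1.5. Scripts were tested on simulated data. No test between conditions was possible with 1 library each.

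Genes named with values were both arms of the 4 hairpins, hairpins sharing a tag, chain neighbours within 10 kb, shared seeds, 9 listed miRNAs, marker miRNAs (Mir292a under its GENCODE symbol Mir292) and the 3 nearest arms. The members and lists were chosen with earlier results of these data known. Added 3′ bases, the miR-203-3p start forms and the split of arms by short reads were examined after seeing the data. No search of the whole genome was made. Hairpins and mature sequences printed are from RefSeq (GRCm38.p6).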

Additional observations from a re-analysis of the deposited data

How the results depend on the processing

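No setting turned the direction of an arm at 2-fold or more either way, and the limits are depth (32 reads for miR-203-3p in DMSO) and the single library per condition. Several settings moved a fold or a 5p share past its counting interval, and the hairpin-read denominator moved the most values, 6 of 8. The shares of all arms past a fold limit, 2 of those 8, have no such interval. With reads matching hairpins as the denominator, the fold was 0.310 for miR-143-5p, 0.693 for miR-143-3p, 2.01 for miR-145-5p and 1.48 for miR-470-5p, and 4.72% of arms were at 2-fold or more and 22% at 0.5 or less. For miR-143-3p the fold was 0.880 with TMM scaling, 0.858 with median-ratio scaling, and 1.01 with 1 mismatch allowed or, in an alternative chosen after seeing the data, with an added 3′ base counted. With tags of at least 21 nt the miR-143-5p fold was 0.746, and the 5p share of Mir143 was 1.27% in DMSO and 0.984% in AICAR. A limit of 1.5-fold called 25.6% of arms higher and 21.3% lower. The cause of these moves was not tested, beyond the reads each setting leaves out. The identical-tag, same-start, every-tag and unique-tag rules moved no value past its interval. With a 10 RPM filter, 8.46% of arms were at 2-fold or more and 9.19% at 0.5 or less. No paired analysis was possible because each condition has 1 library.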
